A study of Mus musculus with 18 samples.

Results

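The 10 genes described here serve fatty acid use in the cell and are known in mouse tissues as targets of the peroxisome proliferator-activated receptors (PPARs), or as the receptor and coactivator that act on such targets. They are Angptl4, Cpt1a, Cpt2, Pdk4, Plin2, Acadvl, Acadm, Hadha, Ppard and Ppargc1a, 10 of the 36047 genes with a listed transcript. They were chosen by symbol after Angptl4 and Cpt1a had been seen to fall in sh3-expressing LLC cells, so the values of that comparison selected the list and are given below as a description, with no test. All 10 genes had listed transcripts, 69 in all, and lay on 7 chromosomes.

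The libraries came from mouse lung cancer cell lines in culture, 18 in all, with 3 in each of 6 groups. LLC cells, labelled lung adenocarcinoma of strain C57BL/6, carried the TPLKO vector with the hairpin sh3 or the empty TPLKO vector, and both groups received doxycycline. UN-SCC679 cells, labelled lung squamous carcinoma of strain A/J, carried TPLKO with sh3 or empty TPLKO, again both with doxycycline. Another pair of UN-SCC679 groups, without a listed treatment, carried pLENTI6 with OE_DSTYKwt or empty pLENTI6. The labels give DSTYK downregulation as the phenotype of every TPLKO library and DSTYK overexpression as that of every pLENTI6 library, empty vectors included, so the groups were read from the sample titles. Dstyk is a gene for a dual serine/threonine and tyrosine protein kinase. Knockdown used 1 hairpin in each line. The labels do not say whether the 3 libraries of a group came from separate cultures, so p-values speak only of library-to-library spread, possibly technical.

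In the GENCODE M21 annotation (GRCm38) all 10 are protein-coding genes. Angptl4 lies at chr17:33773750-33781830 and Plin2 at chr4:86648386-86670060, both on the minus strand. Cpt1a lies at chr19:3322334-3385733 on the plus strand and Cpt2 at chr4:107903981-107923610 on the minus strand. The beta-oxidation genes Acadvl (chr11:70010183-70015411), Acadm (chr3:153922357-153944632) and Hadha (chr5:30118304-30155162) are all on the minus strand, as are Pdk4 (chr6:5483351-5496309) and Ppargc1a (chr5:51454250-51567726), while Ppard (chr17:28232700-28301474) is on the plus strand.

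PPARs are nuclear receptors that bind fatty acids and their derivatives, pair with a retinoid X receptor (RXR) and sit at a direct repeat of AGGTCA spaced by 1 base. Their best known targets in liver, muscle, fat and other tissues move fatty acids: into the cell, into lipid droplets, across the mitochondrial membrane through the carnitine shuttle, and through beta-oxidation. Fatty acids set free by lipolysis can themselves act as ligands, and Ppargc1a encodes the coactivator PGC-1alpha, which docks on PPARs and raises mitochondrial gene expression.

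To show what the stated element looks like in these genes, 3 RefSeq promoters (GRCm38.p6) are printed, each 300 bases long with 250 bases before and 50 after the annotated start: Plin2, whose window held the closest match among the genes described, and Cpt1a and Pdk4, which changed most in LLC and UN-SCC679 cells among those with a listed window, for contrast. Each runs 5′ to 3′ on the gene's own strand. Capitals mark the 13 bases closest to 2 copies of AGGTCA with 1 base between them, on either strand. Where several stretches are equally close, as in Pdk4, only the first found is marked.
Plin2 promoter, chr4:86670010-86670309, minus strand: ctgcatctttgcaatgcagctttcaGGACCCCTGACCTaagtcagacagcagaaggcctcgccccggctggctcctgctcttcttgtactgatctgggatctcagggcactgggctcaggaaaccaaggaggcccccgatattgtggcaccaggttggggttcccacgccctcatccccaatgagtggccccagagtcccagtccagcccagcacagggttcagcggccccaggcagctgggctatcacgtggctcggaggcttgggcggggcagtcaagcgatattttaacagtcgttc
Cpt1a promoter, chr19:3323051-3323350, plus strand: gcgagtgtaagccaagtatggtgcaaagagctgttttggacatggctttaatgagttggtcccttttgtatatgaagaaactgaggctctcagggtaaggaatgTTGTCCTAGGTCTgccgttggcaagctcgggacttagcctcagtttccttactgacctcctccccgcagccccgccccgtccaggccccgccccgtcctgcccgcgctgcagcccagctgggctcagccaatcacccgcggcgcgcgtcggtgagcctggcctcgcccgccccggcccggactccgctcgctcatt
Pdk4 promoter, chr6:5496229-5496528, minus strand: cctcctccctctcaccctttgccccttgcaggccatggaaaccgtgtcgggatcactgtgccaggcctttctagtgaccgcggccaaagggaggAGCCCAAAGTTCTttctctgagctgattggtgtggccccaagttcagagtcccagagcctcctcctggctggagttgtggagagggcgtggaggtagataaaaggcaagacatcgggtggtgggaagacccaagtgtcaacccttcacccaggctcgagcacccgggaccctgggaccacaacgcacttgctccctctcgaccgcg

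RefSeq windows were listed for 9 of the 10 genes, the exception being Angptl4. The Plin2 match differed from the element at 2 letters, read on the strand opposite to the gene, and began 225 bases before the start site. Among all 32851 listed promoters, 3.86% held a match with at most 2 differing letters, and 1 of the 9 did. With at most 3 differing letters the share was 24.6% of all promoters, against 2 of the 9, Plin2 and Acadm. The best matches in Cpt1a and Pdk4 differed at 4 letters, and 79.8% of all promoters held a match at least that close. These are matches of letters in a 300-base window, given as a description.

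Values are given on 2 scales. CPM values (counts scaled to a common library total) are the authors' estimated counts summed per gene, scaled by TMM (trimmed mean of M values) within each pair of groups, and are set beside the tests. TPM values (transcript abundances that sum to the same total in every library) divide by effective transcript length and are used only to compare levels between genes and groups. Libraries held between 40525385 and 46528071 estimated counts.

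Dstyk itself followed the titles. In LLC cells it averaged 23.1 ± 0.79 CPM with sh3 and 42.8 ± 2.07 CPM with empty TPLKO (SD, n = 3 each), a log2 change of -0.89 (edgeR quasi-likelihood test, adjusted p = 9.81e-10). In UN-SCC679 cells it averaged 26.1 ± 0.869 CPM with sh3 and 36.9 ± 0.931 CPM with empty TPLKO, a log2 change of -0.50 (edgeR adjusted p = 5.61e-07). With OE_DSTYKwt it averaged 37.8 ± 0.774 CPM, against 31.0 ± 1.39 CPM with empty pLENTI6, a log2 change of 0.28 (edgeR adjusted p = 6.41e-04). The Dstyk rise in the overexpressing libraries was thus small, and whether the expressed construct is counted by the mouse transcripts was not tested.

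The marker genes bear on what these cultures are. In LLC libraries, labelled adenocarcinoma, the lung lineage factor Nkx2-1 stayed at or below 0.0777 TPM, and Epcam and Cdh1, which mark epithelium, stayed at or below 0.0921 TPM. Other markers of these kinds were present. The 10 epithelial markers summed to 42.2 to 44.0 TPM with sh3 and 40.9 to 46.7 TPM with the empty vector, with 1 at 1 TPM or more. The 10 alveolar and club cell markers summed to 31.5 to 32.9 TPM with sh3 and 15.8 to 17.2 TPM with the empty vector. Of these, 3 were at 1 TPM or more in each group. UN-SCC679 libraries carried Nkx2-1, with group means from 28.1 to 42.1 TPM, and the squamous factor Sox2, with group means from 28.2 to 69.3 TPM, while the basal keratin Krt5 stayed at or below 0.0397 TPM and Epcam at or below 0.142 TPM, so Krt5 and Epcam were at or near 0 in cells labelled squamous carcinoma. Other members of the same lists were present there: the 10 epithelial markers summed to between 340.9 and 1041 TPM over UN-SCC679 libraries, with 3 members at 1 TPM or more in each group, and the 12 squamous and basal markers to between 109 and 187 TPM, with 4 to 7 members at 1 TPM or more. The 9 fibroblast markers summed to more there, 3292 to 3351 TPM with sh3 and 3901 to 4011 TPM with empty TPLKO. With OE_DSTYKwt they summed to 1457 to 1480 TPM, and with empty pLENTI6 to 1356 to 1464 TPM. In LLC cells their sums were 29.0 to 29.9 TPM with sh3 and 19.1 to 20.75 TPM with the empty vector. The UN-SCC679 populations with different empty vectors also stood far apart: Postn averaged 16.7 ± 0.535 TPM with empty TPLKO and 0.0266 ± 0.0338 TPM with empty pLENTI6, and Krt6a 0.339 ± 0.0649 TPM with empty TPLKO and 47.5 ± 0.829 TPM with empty pLENTI6. Vector, doxycycline and culture history cannot be told apart between them. In the deposited counts the UN-SCC679 libraries with TPLKO carry another cell name than those with pLENTI6. Whether it marks a subline is not given.

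The levels of the 10 genes differed between genes and lines by orders of magnitude on the TPM scale. Plin2, which coats lipid droplets, was the most abundant of them in 5 of the 6 groups, at 81.9 ± 4.11 TPM with sh3 and 196 ± 4.57 TPM with the empty vector in LLC cells. In UN-SCC679 cells with sh3, Acadm led instead, at 163 ± 5.81 TPM. Apart from that value, the trifunctional protein subunit gene Hadha and the acyl-CoA dehydrogenase genes Acadm and Acadvl had group means between 24.2 and 105 TPM. Ppargc1a was low throughout, with group means from 0.111 TPM in LLC cells with sh3 to 2.63 TPM in UN-SCC679 cells with empty TPLKO. Pdk4 split the lines: in estimated counts, LLC libraries held 1, 0 and 0 with sh3 and 2, 3 and 0 with the empty vector, whereas UN-SCC679 group means ran from 5.86 to 47.1 TPM.

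**Figure D1:**
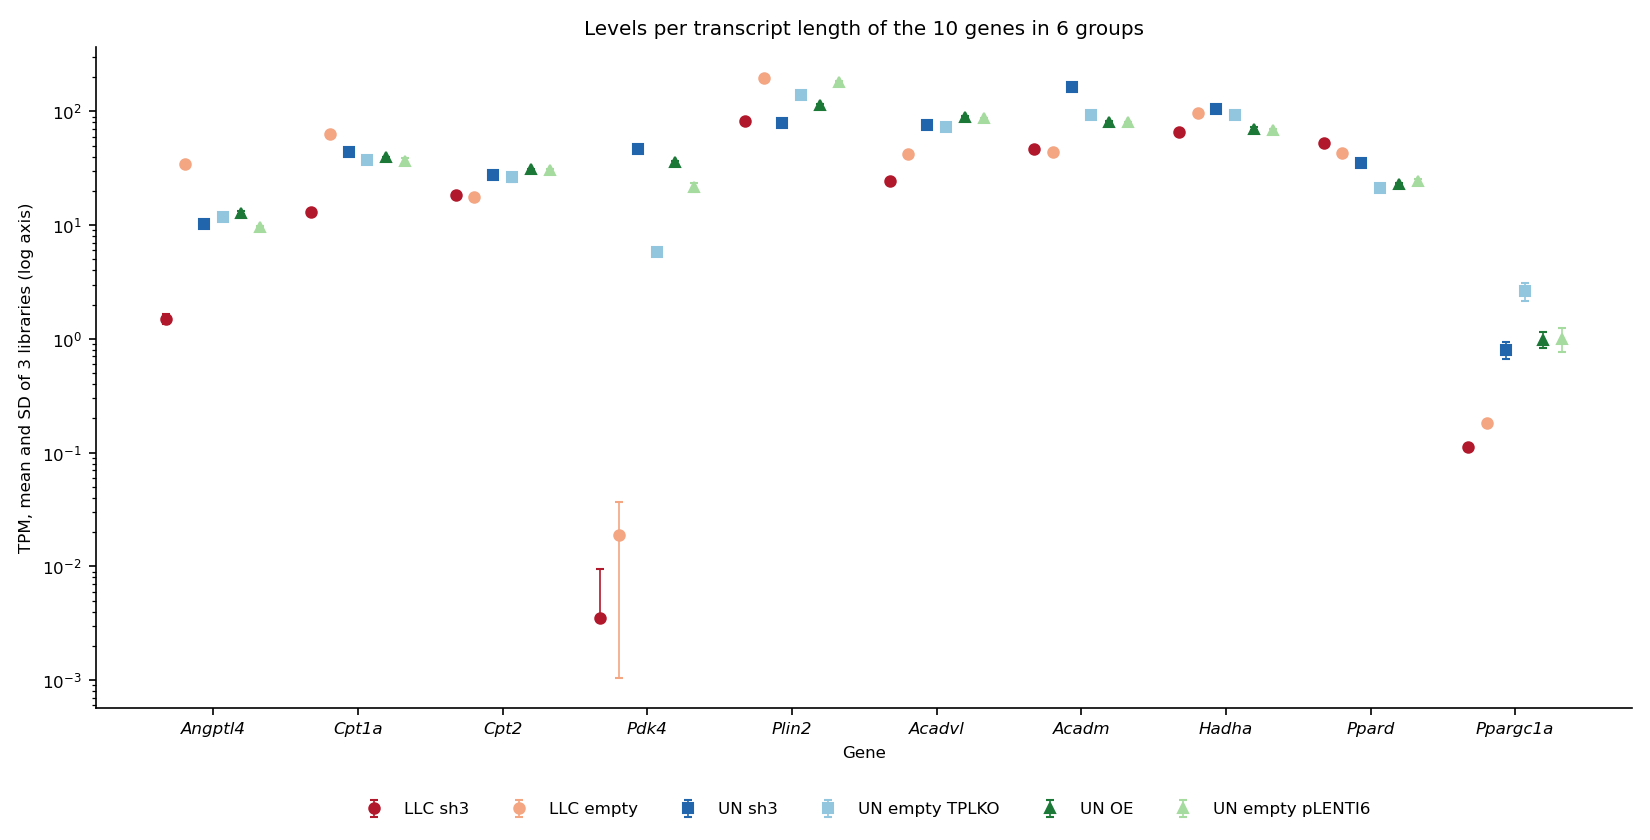
Mean TPM of each gene (log axis) in the 6 groups (UN stands for UN-SCC679, OE for OE_DSTYKwt), with bars of 1 SD over 3 libraries; a bar that would reach 0 is drawn upward only. Plin2 stands highest in 5 groups, Pdk4 lies below 0.02 TPM in both LLC groups and above 5 TPM in all UN-SCC679 groups, and Ppargc1a stays below 3 TPM in all 6.

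Ppard, the gene of the receptor PPAR-delta, was the only PPAR gene with a sizeable level. Its order over groups, from high to low, was LLC with sh3 at 52.9 ± 0.584 TPM, LLC with empty TPLKO at 43.2 ± 0.279, UN-SCC679 with sh3 at 35.1 ± 0.0933, UN-SCC679 with empty pLENTI6 at 24.2 ± 1.17, with OE_DSTYKwt at 23.0 ± 0.314 and with empty TPLKO at 21.0 ± 0.515, with no library of one group overlapping the next. Ppara stayed at or below 0.292 TPM in every library and Pparg, the fat cell PPAR, at or below 1.17 TPM. Angptl4, a secreted inhibitor of lipoprotein lipase, ran from 34.5 ± 0.543 TPM in LLC cells with the empty vector, through 12.9 ± 0.352, 11.8 ± 0.179, 10.2 ± 0.342 and 9.58 ± 0.218 TPM in UN-SCC679 cells with OE_DSTYKwt, empty TPLKO, sh3 and empty pLENTI6, to 1.5 ± 0.157 TPM in LLC cells with sh3. Each neighbour in that order was also apart. For Cpt1a, the outer carnitine palmitoyltransferase, LLC groups again held both ends, 63.1 ± 2.22 TPM with the empty vector and 12.98 ± 0.205 TPM with sh3, and the UN-SCC679 groups with empty TPLKO and empty pLENTI6, at 37.6 ± 0.134 and 36.5 ± 2.49 TPM, overlapped each other.

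TPM does not compare well between the TPLKO and pLENTI6 libraries for 4 of the genes, Hadha, Plin2, Acadm and Ppargc1a. Transcripts with an effective length under 500 bases carried 24.1% of Hadha TPM in UN-SCC679 libraries with sh3 and 26.3% in those with empty TPLKO, but 0.324% with OE_DSTYKwt and 0.25% with empty pLENTI6. For Plin2 the shares were 11.9% and 11.5% in the same TPLKO groups and 0 in both pLENTI6 groups, and for Acadm 14.1% and 11.3% in the TPLKO groups and 1.46% and 0.79% in the pLENTI6 groups. For Ppargc1a they were 10.3% with sh3 and 21.6% with empty TPLKO, against 0 with OE_DSTYKwt and 3% with empty pLENTI6, and in LLC cells 0 with sh3 and 65.7% with the empty vector. Of the counts, such transcripts took at most 4.34% for Hadha, Plin2 and Acadm in any group, and for Ppargc1a at most 2.37% in UN-SCC679 cells but 14.4% in LLC cells with the empty vector. Whether read layout, vector or processing differed between the libraries was not tested.

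The first comparison was that of LLC cells with sh3 against LLC cells with the empty vector. Of the 10 genes, 9 passed the filter on low counts, Pdk4 being the exception. In 7 the libraries of the 2 groups did not overlap, 5 lower and 2 higher with sh3 by counts. Ppargc1a was 1 of the 2 higher, at few counts, and lay lower with sh3 by TPM. Across all 13767 genes tested in these cells, 76% showed no overlap and 72.6% were called at an adjusted p under 0.05. Because the list was picked on this comparison, nothing is read from the members' share. In these bulk libraries, fewer cells of a kind and less RNA per cell cannot be told apart.

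Outside the mitochondrion, Angptl4 measured 1.91, 1.499 and 1.69 CPM with sh3 and 39.0, 38.8 and 37.4 CPM with the empty vector, a log2 difference of -4.50. Plin2 measured 71.3, 72.4 and 68.9 CPM with sh3 and 172, 169.8 and 173 CPM with the empty vector, a log2 difference of -1.28. Both genes sat well below all empty-vector libraries in all 3 sh3 libraries. Most Angptl4 counts, all but 6.77% with sh3 and all but 10.8% with the empty vector, were assigned to transcripts not annotated as coding, chiefly 1 annotated for nonsense-mediated decay, in both groups alike.

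At the carnitine shuttle the 2 transferases parted. Cpt1a, whose product makes acylcarnitines at the outer membrane and is the step blocked by malonyl-CoA, measured 33.7, 33.0 and 34.6 CPM with sh3 and 158, 168.5 and 159.7 CPM with the empty vector, a log2 difference of -2.26. Cpt2, whose product turns them back into acyl-CoA at the inner membrane, measured 24.7, 24.5 and 23.5 CPM with sh3 and 25.3, 24.8 and 22.6 CPM with the empty vector, and the groups overlapped. Of the beta-oxidation enzymes, Acadvl, which opens the cycle on very long chains, measured 30.0, 31.3 and 28.0 CPM with sh3 and 51.1, 49.8 and 51.5 CPM with the empty vector, a log2 difference of -0.77. Hadha, the hydratase and dehydrogenase subunit of the trifunctional protein, averaged 72.2 ± 1.51 CPM with sh3 and 112 ± 3.2 CPM with the empty vector, a log2 difference of -0.64. Only 13.8% of Hadha counts with sh3 and 14.4% with the empty vector were assigned to transcripts annotated as coding. Acadm, the medium-chain dehydrogenase, averaged 43.2 ± 0.788 CPM with sh3 and 43.6 ± 0.227 CPM with the empty vector, and its libraries overlapped. Acadvl and Hadha thus lay lower in all sh3 libraries, and Acadm did not separate the groups.

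Among the regulators, Ppard measured 95.03, 96.9 and 92.5 CPM with sh3 and 81.5, 80.5 and 81.1 CPM with the empty vector, a log2 difference of 0.23 and opposite in sign to the target genes that fell. Ppargc1a stood at 17, 12 and 17 estimated counts per library with sh3 and 11, 8 and 8 with the empty vector. Its log2 difference of 0.68 by counts became -0.69 when effective length was taken into account, so no direction is given for it. Acadvl overlaps Dvl2 on the opposite strand, a gene at 38.7 TPM on average. The library kit keeps strand, per the labels' protocols, but whether the counting used it is not given in the sources used here.

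**Figure D2:**
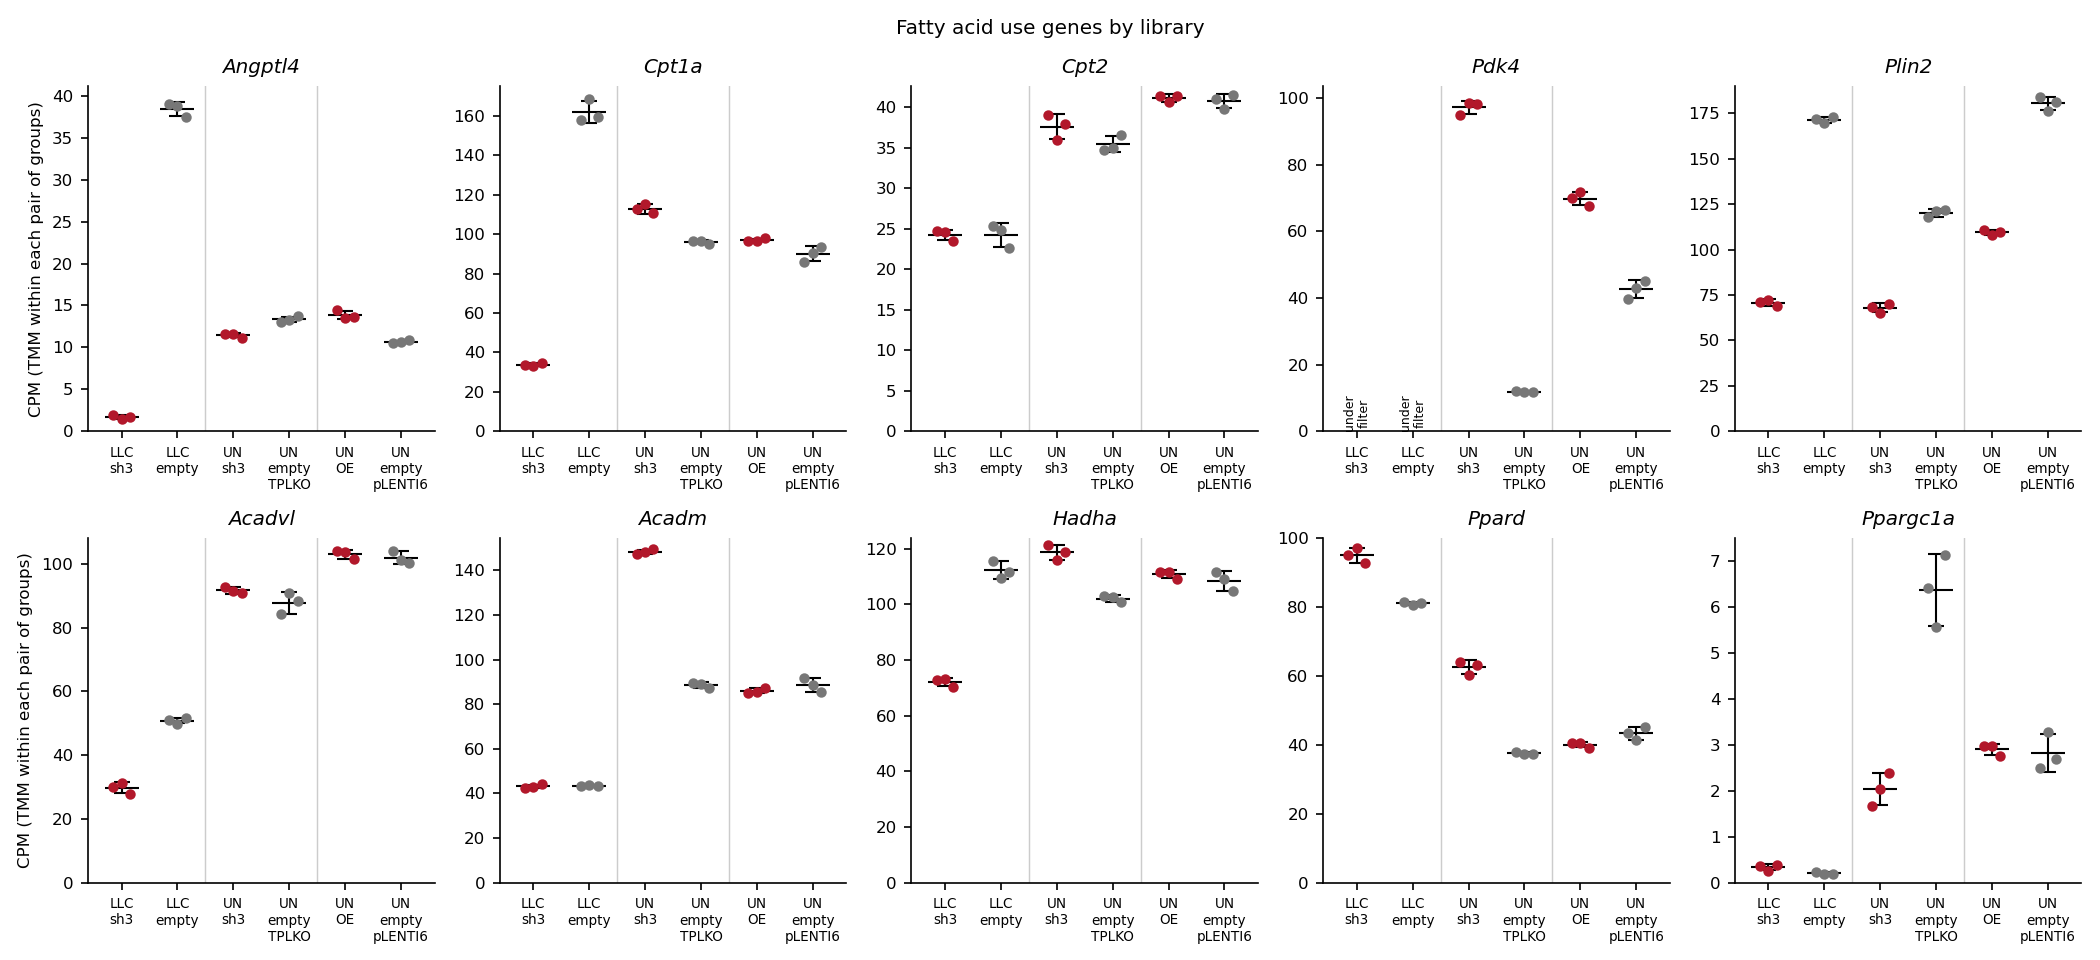
CPM of each gene by library (points), with the group mean and 1 SD; UN stands for UN-SCC679, sh3 and overexpressing (OE) libraries are red and empty-vector libraries grey, and scaling was done within each pair of groups. In LLC cells Angptl4 measured 1.499 to 1.91 CPM with sh3 and 37.4 to 39.0 CPM with the empty vector, whereas Pdk4 separates the UN-SCC679 groups, with 94.95 to 98.5 CPM with sh3 and 11.7 to 12.2 CPM with empty TPLKO.

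The list was not picked on the UN-SCC679 knockdown, although its results were known, and this comparison was tested. All 10 genes passed the filter, and 8 were called, 5 higher and 3 lower with sh3, where 63.8% of the 14271 genes tested were called. For 9 the libraries did not overlap, against 68.2% of all tested genes. Calls were thus about as common among the 10 as across the transcriptome, most of which moved. The median log2 change of the 10 was 0.15, against 0.01 over all genes tested.

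Pdk4, which encodes the kinase that shuts pyruvate dehydrogenase and so spares glucose when fat is burned, moved furthest. It measured 94.95, 98.5 and 98.3 CPM with sh3 and 12.2, 11.9 and 11.7 CPM with empty TPLKO. All sh3 libraries lay far above the others, with a log2 change of 3.03 ± 0.04 (SE, n = 3 each, edgeR adjusted p = 4.48e-14). The opposite move was that of Ppargc1a, at 1.68, 2.05 and 2.38 CPM with sh3 and 6.42, 5.56 and 7.14 CPM with empty TPLKO. Its groups did not overlap either, and the log2 change was -1.65 (edgeR adjusted p = 1.48e-06), at between 75 and 286 counts per library.

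The receptor gene Ppard rose in UN-SCC679 cells. It measured 63.9, 60.1 and 63.2 CPM with sh3 and 37.9, 37.3 and 37.3 CPM with empty TPLKO, a log2 change of 0.74 (edgeR adjusted p = 3.64e-09). Every sh3 library exceeded every empty-vector one, as in LLC cells.

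Plin2 fell, and Angptl4 fell by little. Plin2 measured 68.6, 65.1 and 70.1 CPM with sh3 and 118, 121 and 122 CPM with empty TPLKO, a log2 change of -0.82 (edgeR adjusted p = 6.72e-10). Angptl4 measured 11.6, 11.6 and 11.2 CPM with sh3 and 13.1, 13.2 and 13.7 CPM with empty TPLKO, a log2 change of -0.22 (edgeR adjusted p = 0.00721). The libraries of both genes were apart. The Angptl4 log2 values were -0.22 here and -4.50 in LLC cells, and the difference between the lines was not tested.

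Among the carnitine shuttle and beta-oxidation genes of the 10, 3 rose with sh3 and 2 did not pass the test. Cpt1a measured 113, 115.5 and 111 CPM with sh3 and 96.6, 96.5 and 95.2 CPM with empty TPLKO, a rise of 0.23 on the log2 scale (edgeR adjusted p = 6.57e-06). Acadm measured 147, 148 and 149 CPM with sh3 and 89.5, 89.0 and 87.1 CPM with empty TPLKO, a rise of 0.74 (edgeR adjusted p = 1.3e-10). Acadm was thus the beta-oxidation gene of the list with the largest change here and with overlapping libraries in LLC cells. Hadha averaged 119 ± 2.79 CPM with sh3 and 102 ± 1.19 CPM with empty TPLKO, a log2 change of 0.22 (edgeR adjusted p = 1.32e-05). Transcripts annotated as coding took 15.4% of Hadha counts with sh3 and 13.7% with empty TPLKO. Their share was 33.0% with OE_DSTYKwt and 31.7% with empty pLENTI6. For Cpt2, 37.6 ± 1.57 CPM with sh3 and 35.4 ± 0.984 CPM with empty TPLKO, the 95% interval of the log2 change ran from -0.003 to 0.176 (edgeR adjusted p = 0.0851). For Acadvl, 91.7 ± 1.01 CPM with sh3 and 87.7 ± 3.36 CPM with empty TPLKO, it ran from -0.004 to 0.13 (edgeR adjusted p = 0.0922). Neither passed the test, and rises of more than these upper bounds lie outside the intervals.

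Overexpression was set against its own empty vector, with libraries on which the list was not picked. Of the 10 genes 5 were called, 3 higher and 2 lower with OE_DSTYKwt (3 and 1 with DESeq2 size factors or library size alone), where 29.7% of the 13975 genes tested were called. The same 5 had no overlap between libraries, against 46% of all tested genes. The median log2 change of the 10 was 0.02, against 0.00 over all genes. Of the 5 calls, 3 held under every alternative processing tried (Angptl4, Pdk4 and Plin2), and those of Cpt1a and Ppard did not.

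Plin2 measured 111, 108 and 109.5 CPM with OE_DSTYKwt and 184, 177 and 181 CPM with empty pLENTI6, a log2 change of -0.72 (edgeR adjusted p = 1.6e-07). Pdk4 measured 70.1, 71.7 and 67.7 CPM with OE_DSTYKwt and 39.8, 43.0 and 45.1 CPM with empty pLENTI6, a log2 change of 0.71 (edgeR adjusted p = 4.24e-06). Angptl4 measured 14.4, 13.5 and 13.7 CPM with OE_DSTYKwt and 10.6, 10.6 and 10.8 CPM with empty pLENTI6, a log2 change of 0.38 (edgeR adjusted p = 3.79e-04). In each of the 3 genes the groups were clear of one another. Plin2 and Pdk4 therefore moved in the same direction with sh3 and with OE_DSTYKwt, each against its own empty vector, and Angptl4 in opposite directions.

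Cpt1a averaged 97.1 ± 0.714 CPM with OE_DSTYKwt and 90.04 ± 3.8 CPM with empty pLENTI6, a log2 change of 0.11 (edgeR adjusted p = 0.0352), and its adjusted p ran from 0.0165 to 0.143 over the alternatives. Ppard averaged 40.04 ± 0.819 CPM with OE_DSTYKwt and 43.3 ± 1.82 CPM with empty pLENTI6, a log2 change of -0.11 (edgeR adjusted p = 0.0494), with adjusted p from 0.0286 to 0.30 over the alternatives. Both changes were small beside those of Plin2 and Pdk4. For Cpt2, Acadvl, Acadm and Hadha the 95% intervals of the log2 change lay between -0.114 and 0.099, and for Ppargc1a between -0.242 and 0.317, so none passed and larger changes lie outside those intervals.

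Empty pLENTI6 replicate 1 differed more from its fellows than other libraries did, with a chi-square per gene of 12.2 and 13.8, against 1.92 to 5.04 within all other pairs. Without it the overexpression comparison again called 5 of the 10 genes, 3 higher and 2 lower.

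**Figure D3:**
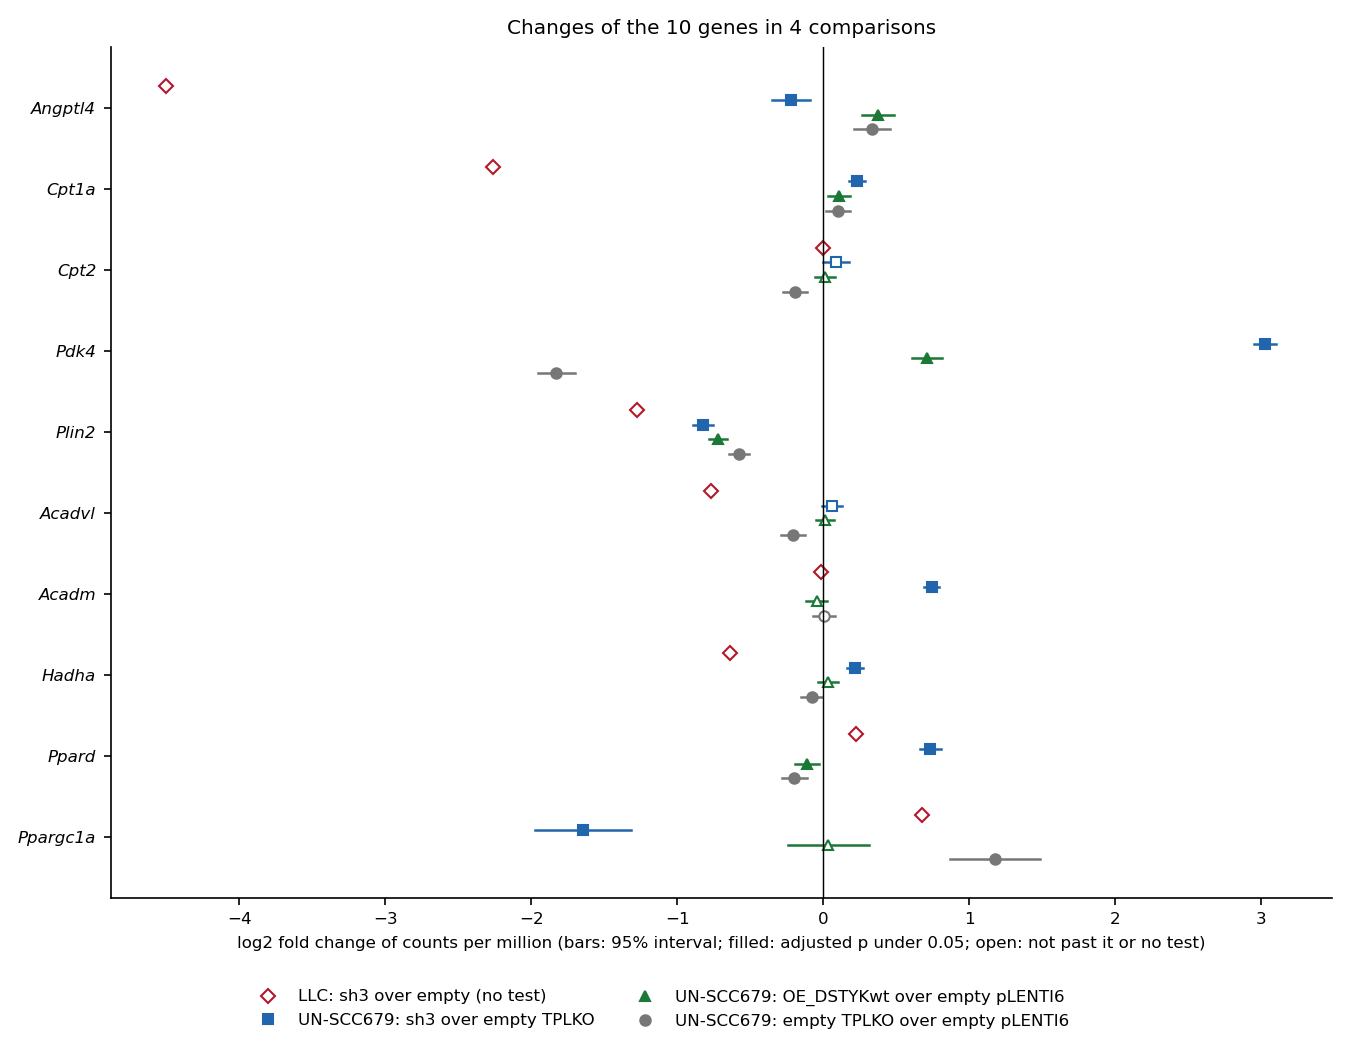
Log2 fold change of each gene in 4 comparisons, with 95% intervals where a test was run; filled symbols passed an adjusted p under 0.05, and the LLC values (open diamonds) carry no test. Angptl4 and Cpt1a lie at -4.50 and -2.26 in LLC cells but within 0.4 of 0 in the 3 UN-SCC679 comparisons, and Plin2 lies below 0 in all 4.

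Whether knockdown and overexpression differed in UN-SCC679 cells was tested directly as the difference of the 2 effects over 12 libraries. It was called for 8 of the 10 genes, where 51.9% of all 14975 genes tested were called. Knockdown minus overexpression came to 2.32 on the log2 scale for Pdk4 (edgeR adjusted p = 9.2e-13), 0.85 for Ppard (4.24e-09), 0.79 for Acadm (3.47e-10), 0.19 for Hadha (7.99e-04) and 0.13 for Cpt1a (0.0229). It was negative for Ppargc1a at -1.68 (edgeR adjusted p = 7.2e-06), Angptl4 at -0.59 (4.2e-06) and Plin2 at -0.10 (0.0452). The Plin2 difference was lost in 13 of 19 alternatives, with adjusted p up to 0.288, and that of Cpt1a in 8 of 19, with adjusted p up to 0.246. Thus Pdk4 rose in both comparisons but by more with sh3, and for Plin2 a difference between the 2 falls was not stable.

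The size of these effects can be set against the gap between the empty-vector populations. Between empty TPLKO with doxycycline and empty pLENTI6, neither of which alters DSTYK by design, Dstyk itself averaged 36.6 ± 0.974 CPM with empty TPLKO and 30.5 ± 1.45 CPM with empty pLENTI6, a log2 change of 0.26 (edgeR adjusted p = 4.65e-04). Of the 10 genes, 9 were called, 3 higher and 6 lower with empty TPLKO, where 68.7% of all 14080 genes tested were called. Pdk4 measured 12.1, 11.8 and 11.6 CPM with empty TPLKO and 39.0, 42.4 and 44.4 CPM with empty pLENTI6, a log2 change of -1.83 (edgeR adjusted p = 3.07e-09). Ppargc1a measured 6.35, 5.52 and 7.09 CPM with empty TPLKO and 2.45, 3.24 and 2.65 CPM with empty pLENTI6, a log2 change of 1.18 (edgeR adjusted p = 3.32e-05). Plin2 averaged 119 ± 2.3 CPM with empty TPLKO and 178 ± 3.07 CPM with empty pLENTI6, a log2 change of -0.58 (edgeR adjusted p = 8.91e-08). These 3 genes had the largest log2 changes of the 10 both with sh3 and between the empty vectors, and the 2 comparisons share the empty TPLKO libraries. The Pdk4 level with empty TPLKO was the lowest of the 4 UN-SCC679 groups and its Ppargc1a level the highest. Hadha was called lower with empty TPLKO by counts (log2 change -0.08, edgeR adjusted p = 0.0486) but higher by 0.40 when effective length entered the fit, so its direction is not given.

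The receptors' partners and the rest of the pathway were followed in 7 lists with 87 other genes. With sh3 in UN-SCC679 cells, 74 of them were tested and 29 rose and 28 fell, 77% in all against 63.8% of all genes, with a median log2 change of 0.05. With sh3 in LLC cells, 68 were tested and 30 rose and 24 fell, 79.4% against 72.6%, with a median of 0.15. With OE_DSTYKwt, 72 were tested and 11 rose and 14 fell, 34.7% against 29.7%, with a median of 0.00. In each comparison calls went both ways in near equal numbers. The same shares of all genes stand beside the counts of the single lists below.

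Among receptors, RXR partners and coregulators, 4 rose and 3 fell of 10 tested with sh3 in UN-SCC679 cells. Rxra, the usual partner of PPARs, averaged 118 ± 2.09 CPM with sh3 and 71.8 ± 2.97 CPM with empty TPLKO, a log2 change of 0.72 (edgeR adjusted p = 3.17e-09), so that it rose beside Ppard. In LLC cells Rxra was lower with sh3, at 65.4 ± 0.881 CPM against 78.3 ± 2.79 CPM with the empty vector (log2 change -0.26, edgeR adjusted p = 5.35e-06), and 5 of the list fell and 3 rose of 9 tested, the mediator subunit gene Med1 (-0.44) among the falls. Pparg changed at a low level: 0.821 ± 0.181 CPM with sh3 and 0.165 ± 0.014 CPM with empty TPLKO, and 0.358 ± 0.118 CPM with OE_DSTYKwt and 1.25 ± 0.0343 CPM with empty pLENTI6, log2 changes of 2.29 with sh3 (edgeR adjusted p = 1.58e-04) and -1.79 with OE_DSTYKwt (edgeR adjusted p = 5.07e-04). In the sh3 comparison Pparg passed the filter on low counts only through the sh3 libraries, so nothing is read from the size of its rise. Scaled between the empty vectors, Pparg averaged 0.164 ± 0.0138 CPM with empty TPLKO and 1.23 ± 0.0336 CPM with empty pLENTI6. With OE_DSTYKwt, 1 of the list rose and 2 fell of 10 tested.

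Fatty acid uptake and activation held the widest moves in UN-SCC679 cells, where 4 genes rose and 6 fell of 12 tested with sh3. The fatty acid binding protein gene Fabp4, a classic PPAR target in fat cells and macrophages, averaged 4.09 ± 0.645 CPM with sh3 and 0.391 ± 0.0978 CPM with empty TPLKO, a log2 change of 3.39 (edgeR adjusted p = 9.82e-08). With OE_DSTYKwt it averaged 2.83 ± 0.427 CPM, against 6.07 ± 0.283 CPM with empty pLENTI6, a log2 change of -1.10 (edgeR adjusted p = 6.73e-05). Scaled between the empty vectors, it averaged 0.387 ± 0.0975 CPM with empty TPLKO and 5.98 ± 0.297 CPM with empty pLENTI6. Its far more abundant relative Fabp5 fell in both, to 182 ± 1.12 CPM with sh3, against 331 ± 4.79 CPM with empty TPLKO, and to 517.5 ± 6.42 CPM with OE_DSTYKwt, against 623 ± 25 CPM with empty pLENTI6 (edgeR adjusted p = 1.2e-11 for sh3 and 2.81e-04 for OE_DSTYKwt). The lipoprotein receptor gene Vldlr rose with sh3 by 3.54 on the log2 scale, yet only to 0.653 TPM, and Acsl6 fell by 1.39. Vldlr averaged 0.133 CPM with empty TPLKO and passed the filter on low counts only through the sh3 libraries. Nothing is read from the size of its rise. In LLC cells 6 rose and 3 fell of 11 tested, with Lpl, the lipase that Angptl4 inhibits, at a log2 change of 0.81 (edgeR adjusted p = 3.24e-11) and the acyl-CoA synthetase gene Acsl5 at -0.66 (edgeR adjusted p = 1.77e-11). With OE_DSTYKwt, 1 rose and 3 fell of 12 tested.

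Within the rest of the carnitine shuttle, Slc25a20, which encodes the carrier that takes acylcarnitines across the inner membrane between the 2 transferases, averaged 11.7 ± 0.826 CPM with sh3 and 23.4 ± 1.18 CPM with the empty vector in LLC cells, a log2 change of -1.01 (edgeR adjusted p = 1.06e-08). It was the only one of 6 shuttle genes to fall there, while 3 rose, Crot by 0.45. In UN-SCC679 cells with sh3, 1 shuttle gene rose and 3 fell of 6, with Slc25a20 at a log2 change of -0.16 and Crot, which acts on peroxisomal acyl-CoA, at 0.46. With OE_DSTYKwt 2 rose and none fell of 6.

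Of the other mitochondrial beta-oxidation genes, 8 fell and 5 rose of 15 tested in LLC cells with sh3. Acaa2, the last enzyme of the cycle, averaged 17.8 ± 0.977 CPM with sh3 and 37.8 ± 1.17 CPM with the empty vector (log2 change -1.09, edgeR adjusted p = 2.34e-10), and the electron transfer genes Etfdh and Etfb lay at -0.73 and -0.63. In UN-SCC679 cells with sh3, 5 rose and 6 fell of 15, with Acaa2 again lower at 46.9 ± 1.02 CPM, against 74.1 ± 1.81 CPM with empty TPLKO (log2 change -0.66, edgeR adjusted p = 5.02e-09). With OE_DSTYKwt 3 rose and 3 fell of 15. Of the peroxisomal genes 3 of 9 tested rose with sh3 in UN-SCC679 cells and none fell, 33.3% called against 63.8% of all genes. In LLC cells 3 rose and 2 fell of 8, 62.5% against 72.6%. With OE_DSTYKwt 2 rose and 2 fell of 9.

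All 9 lipid droplet and lipolysis genes tested in UN-SCC679 cells passed with sh3, 4 higher and 5 lower, where 63.8% of all genes passed. Mgll, the monoglyceride lipase gene, rose by 1.99 on the log2 scale at a low level, 1.79 ± 0.458 CPM with sh3 and 0.448 ± 0.0562 CPM with empty TPLKO. Plin3, another droplet coat gene, rose by 0.30 while Plin2 fell, and Abhd5, the activator of triglyceride lipase, fell by 0.28. In LLC cells 3 rose and 2 fell of 7, with Plin3 at 0.25 and Abhd5 at -0.42. With OE_DSTYKwt 1 rose and 2 fell of 8.

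The fuel switch list stood beside Pdk4, with 8 of 13 tested genes higher and 5 lower with sh3 in UN-SCC679 cells. Of all genes tested there, 63.8% were called. Txnip, a brake on glucose uptake, averaged 29.1 ± 1.12 CPM with sh3 and 6.33 ± 0.303 CPM with empty TPLKO (log2 change 2.20, edgeR adjusted p = 5.48e-11). It was far lower with empty TPLKO than with empty pLENTI6, at 6.28 ± 0.297 CPM with empty TPLKO and 97.9 ± 0.416 CPM with empty pLENTI6 (log2 change -3.96, edgeR adjusted p = 5.99e-12), and it fell with OE_DSTYKwt, to 73.9 ± 0.687 CPM, against 99.4 ± 0.737 CPM with empty pLENTI6 (log2 change -0.43, edgeR adjusted p = 2.7e-06). Acot1, whose counts may be shared with its near-identical neighbour Acot2, rose with sh3 by 2.55 while Acot2 fell by 0.84. Acot1 averaged 1.26 CPM with sh3 and 0.215 CPM with empty TPLKO, and passed the filter on low counts only through the sh3 libraries. Nothing is read from the size of its rise. The pyruvate dehydrogenase kinase genes Pdk1 and Pdk2 rose by 0.69 and 0.58. Of the phosphatase genes in the list, Pdp1 was also higher, at 40.2 ± 0.723 CPM with sh3 and 22.3 ± 1.38 CPM with empty TPLKO. Pdp2 was lower, at 10.1 ± 0.914 CPM with sh3 and 16.1 ± 1.03 CPM with empty TPLKO. With sh3 in LLC cells Pdp1 averaged 44.1 CPM and Pdp2 27.05 CPM, against 23.5 and 16.85 CPM with the empty vector. In LLC cells, where Pdk4 was all but absent, Pdk1 averaged 86.6 ± 1.12 CPM with sh3 and 39.5 ± 1.33 CPM with the empty vector (log2 change 1.13, edgeR adjusted p = 4.99e-12), while Txnip averaged 26.1 ± 0.573 CPM with sh3 and 69.2 ± 1.11 CPM with the empty vector (log2 change -1.41, edgeR adjusted p = 1.07e-12). Acacb, which makes the malonyl-CoA that blocks CPT1, rose in both, by 1.77 in LLC and 0.80 in UN-SCC679 cells. It stayed at a low level with sh3, 4.39 CPM in LLC and 3.9 CPM in UN-SCC679 cells. Acaca, the other acetyl-CoA carboxylase gene of the list, was far more abundant and lower with sh3 in both. In LLC cells Acaca averaged 171 ± 1.59 CPM with sh3 and 188 ± 1.4 CPM with the empty vector. In UN-SCC679 cells Acaca averaged 148 ± 2.94 CPM with sh3 and 210 ± 3.24 CPM with empty TPLKO. The hormone gene Fgf21, a PPAR-alpha target in liver, rose by 1.67 in LLC cells and fell by 1.32 in UN-SCC679 cells. The list had 7 higher and 3 lower of 12 in LLC cells, and 1 higher and 2 lower of 12 with OE_DSTYKwt. Differences between the lines were not tested.

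**Figure D4:**
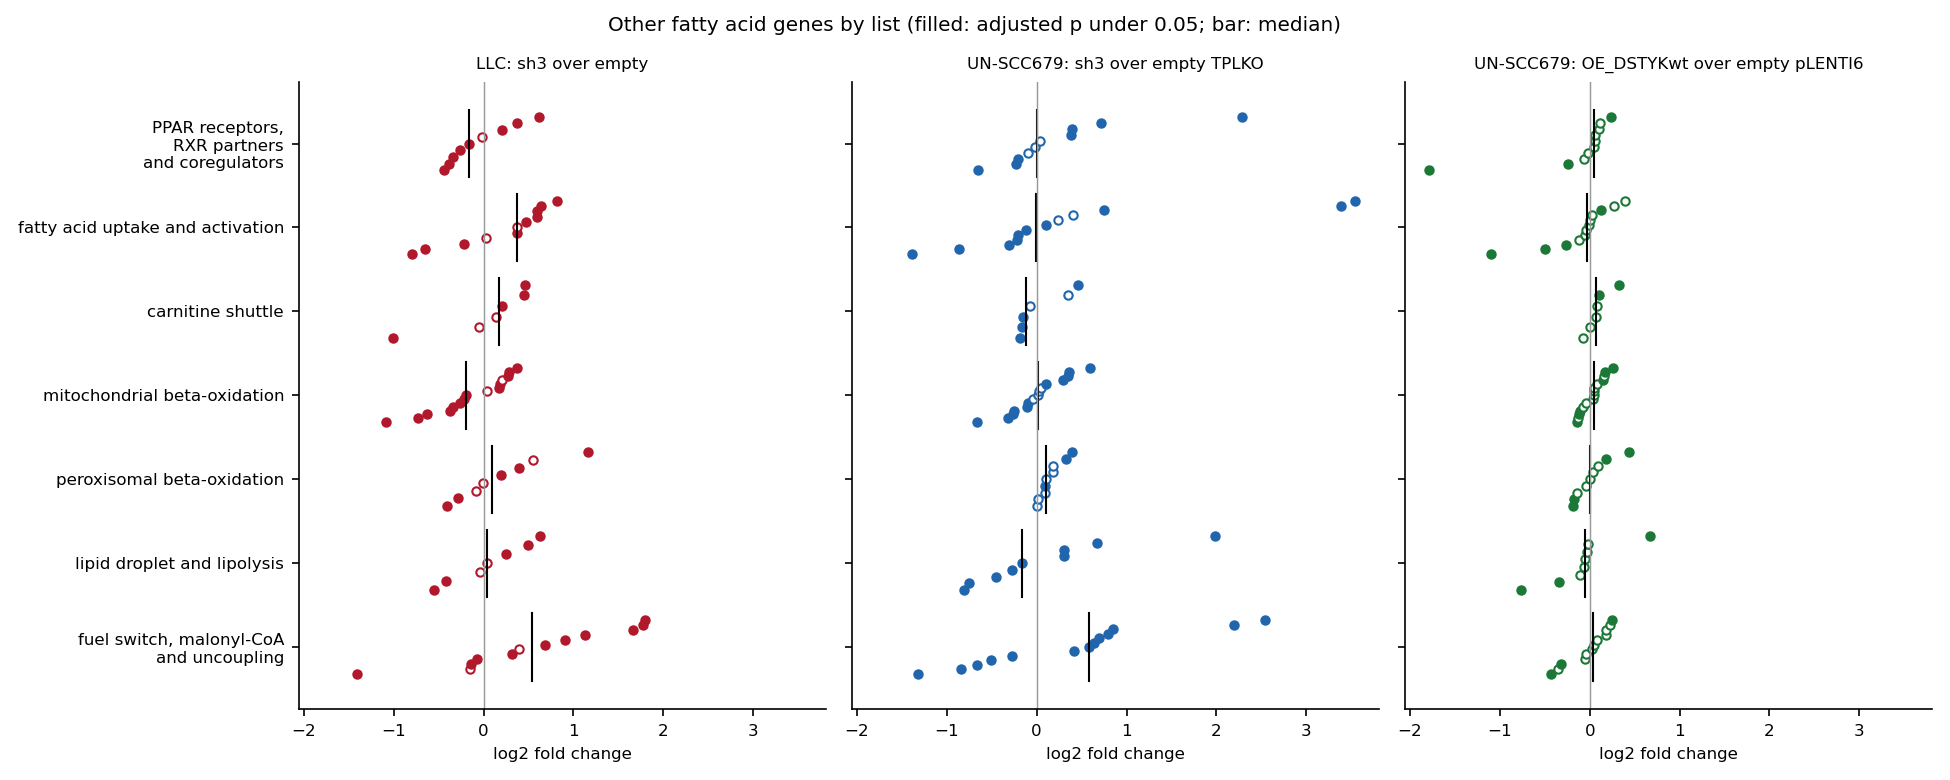
Log2 fold change of each tested gene of 7 fatty acid lists in 3 comparisons; filled points passed an adjusted p under 0.05, and the black bar is the list's median. Points lie on both sides of 0 in most lists, and the fuel switch list has its median at 0.54 in LLC and 0.58 in UN-SCC679 cells with sh3, against 0.04 with OE_DSTYKwt.

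Since Plin2, Angptl4 and Fabp4 are also high in fat cells, the adipocyte markers are given beside them. Of the 8 markers, 2 were at 1 TPM or more in UN-SCC679 libraries with sh3 and 1 with empty TPLKO, the second being Fabp4, which is itself one of the lists' genes. The defining markers Adipoq, Lep and Cidec stayed at or below 0.151 TPM in every library, and Plin1 at or below 0.173 TPM. Their summed level, most of it from the widely expressed Adipor2, ran from 41.6 to 44.1 TPM with sh3 and from 32.7 to 32.9 TPM with empty TPLKO in UN-SCC679 cells, from 47.7 to 48.1 TPM with sh3 and from 44.6 to 46.9 TPM with empty TPLKO in LLC cells, and from 47.5 to 48.7 TPM with OE_DSTYKwt and from 51.4 to 56.5 TPM with empty pLENTI6. Fibroblast markers moved with the UN-SCC679 knockdown, 5 higher and 1 lower of the 7 tested of 9 listed, Pdgfra at a log2 change of 3.04 and Postn at 3.39. Their summed level nevertheless went the other way, and lay lower with sh3, at 3292 to 3351 TPM, against 3901 to 4011 TPM with empty TPLKO. The median log2 change of the 7 tested was 1.05, so the median and the sum, which the most abundant members weigh on most, went in opposite directions. In this comparison 63.8% of all tested genes were called, a share to be set beside the fibroblast calls and those of the marker lists that follow. Of the squamous and basal markers 5 rose and 1 fell of 7 tested, with a median log2 change of 1.60 and sums from 121.7 to 123.9 TPM with sh3 and from 109 to 117 TPM with empty TPLKO. Of the alveolar and club cell markers 3 rose and 1 fell of 5, with a median of 1.29 and sums from 84.9 to 88.4 TPM with sh3 and from 70.1 to 72.3 TPM with empty TPLKO. Of the epithelial markers 2 rose and 2 fell of 5, with sums from 340.9 to 358 TPM with sh3 and from 543 to 567 TPM with empty TPLKO. The part of any of these lists in the changes of the 10 genes was not tested.

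Genes with the most similar response were sought by the distance between their 3 log2 changes (LLC sh3, UN-SCC679 sh3 and OE_DSTYKwt), over 8427 genes with a mean log2 CPM of 3 or more. For Ppard the nearest was Tob1, at a distance of 0.014, with changes of 0.21, 0.74 and -0.11, followed by Paip2 at 0.038. For Cpt1a the nearest was Mgst3, at 0.575, and for Angptl4 it was Cpt1a itself, at 2.30. Both distances include the LLC values for which Angptl4 and Cpt1a were chosen, and the 2.30 rests mainly on them. Nothing is read from either. Each change rests on 6 libraries.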

How the data were processed

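RNA of 18 mouse libraries was made with a stranded Illumina mRNA kit, per the labels' protocols, which name both single-end and paired-end runs without saying which library had which. The tools listed are kallisto and sleuth and the build mm10, all without versions, per the submitters' processing notes. For each transcript the authors deposited an estimated count, not normalized, and an effective length. Reads carry no molecule tags.

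Of 118489 transcripts, 116816 matched a gene of GENCODE M21 (GRCm38). The other 1673 held 0.515% to 0.593% of counts and were left out. Counts of a gene's transcripts were added up and rounded to whole numbers. edgeR 4.0.16 (R 4.3.3) ran quasi-likelihood tests with TMM scaling and filterByExpr (minimum count 10, total 15), with Benjamini-Hochberg adjustment over all tested genes and a threshold of 0.05. TPM was computed from counts and lengths. DESeq2 1.42.0 and limma 3.58.1 (pseudocount 1) served as alternatives, and the procedure was tested on simulated data. Fits used the groups compared, without covariates. Same-numbered replicates did not deviate together (correlations between -0.08 and 0.068), so numbers were not taken as pairs. Promoters came from RefSeq.

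The 10 genes and all lists were chosen with earlier results of these data known. Named genes outside the 10 were Dstyk, the 3 smallest adjusted p of each list, called list genes with a log2 change of 1 or more, and the 5 nearest genes by response. Ppara and the marker genes were named after their values were seen. Some list genes that the rule would name are not reported here.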

Additional observations from a re-analysis of the deposited data

Results flagged for a closer look

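For 4 genes every sh3 library lay on one side of every empty-vector library in LLC cells and on the other side in UN-SCC679 cells, and the difference between the lines was not tested, since the LLC comparison served to choose the genes. On the log2 scale, Cpt1a changed by -2.26 in LLC and by 0.23 in UN-SCC679 cells, and Hadha by -0.64 in LLC and by 0.22 in UN-SCC679 cells. Acadvl changed by -0.77 in LLC and by 0.063 in UN-SCC679 cells, where it did not pass the test and the nearest libraries of the groups measured 90.74 CPM with sh3 and 90.73 CPM with empty TPLKO. Ppargc1a changed by 0.68 in LLC and by -1.65 in UN-SCC679 cells, but its LLC counts were at most 17 per library and its direction there turned when effective length was taken into account. The lines also differ in strain and labelled tumour type. Groups of 3 are too small for a search for outlying libraries.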

How the results depend on the processing

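The UN-SCC679 knockdown called 8 of the 10 genes, 10 with scaling by library size alone (7 higher, 3 lower), and 8 to 9 without any 1 library. For overexpression, 5 genes called became 3 with the DESeq2 Wald test, 3 with limma on log2(TPM + 1) and 3 with an offset for effective length, and 3 to 5 without any 1 library, falling to 3 without each of the OE_DSTYKwt libraries in turn. Its split of 3 higher and 2 lower became 3 and 1 with DESeq2 size factors, library size alone or no filter on low counts. Calls over all genes there fell from 4154 to 2644 with limma. The difference of knockdown and overexpression called 8 genes, 5 with limma and 6 to 8 without any 1 library. The empty-vector comparison called 7 to 9 without any 1 library. Over single genes and settings, of 140 empty-vector results 15 lost their call, 2 gained one and 2 turned, and of 140 overexpression results 18 lost theirs. LLC genes without overlap numbered 7 to 8 without any 1 library. Values that turned were Ppargc1a in LLC cells (-0.088 with limma, -0.686 with the length offset) and Hadha between the empty vectors (0.433 with limma, 0.40 with the length offset); the alternatives that turned them divide by transcript length, and the cause was not tested further. With the replicate number as a replicate block, the UN-SCC679 knockdown called 8 genes, overexpression 4 (Ppard lost), the empty vectors 8 (Hadha lost), and LLC genes without overlap stayed at 7; the numbers were not shown to pair samples. Low counts limit Ppargc1a and Pdk4 in LLC cells.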
